A study of Drosophila melanogaster with 24 samples.

Results

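Broad Pol II domains are long unbroken stretches of the fly genome in which RNA polymerase II (Pol II) was called in early embryos. A peak of either Pol II list was kept when it overlapped a peak of the other list by at least 1 bp, the kept peaks were merged, and merged regions of at least 5000 bp were taken as broad domains. Of 5754 merged regions, 809 were broad (14.1%), and they held 7.61 Mb, or 49.4% of the bases in merged regions. The domains were thus chosen by the width of Pol II regions, and Pol II values are given below as a description without a test. The 4945 narrower regions held 7.79 Mb, and 1436 of them were 2000 bp or wider and are called mid-width regions here.

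The study profiled chromatin of Drosophila melanogaster embryos by ChIP-seq, in which DNA bound by a protein is pulled down with an antibody and sequenced. Embryos were 1 to 3 h old and at stage 4 to 6, and no genotype or treatment beyond growth on standard medium is given in the labels. Lists of peaks were used for 4 Ada2b libraries (numbers 1530_1, 1530_2, 1530_3 and 1760_2), 3 Spt3 libraries (1530_1, 1530_2 and 1760_2), 3 Sgf11 libraries (1377_1, 1377_2 and 1924_2), 2 Non-stop libraries (1924_1 and 1924_2) and 2 Pol II libraries (1188_2 and 1632_1). The SAGA subunit antibodies were raised in rabbit, against full-length Spt3 and Sgf11 and against stretches of Ada2b and Non-stop, and the Pol II antibody 4H8 is labelled as specific for the repeated tail of the polymerase phosphorylated at serine 5. Nothing in the labels says that libraries of one factor came from separate embryo collections, so p-values measure the spread between these libraries, which may be technical. The first part of a library number is called its set here. Libraries of different factors share numbers, Ada2b with Spt3 in sets 1530 and 1760 and Sgf11 with Non-stop in set 1924. The 12 SAGA libraries may thus not be independent, and pooled tests treat them as if they were.

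SAGA is a coactivator built of modules. Ada2b belongs to the acetyltransferase module, which acetylates histone H3, Spt3 belongs to the SPT module, which contacts the TATA-binding protein in yeast, and Sgf11 and Non-stop belong to the deubiquitinase module, in which Non-stop is the enzyme that removes ubiquitin from histone H2B. Pol II phosphorylated at serine 5 is typical of the start of genes and of polymerase that has just begun to transcribe, and H2B ubiquitin is laid down along transcribed gene bodies. Stages 4 to 6 cover the blastoderm and the onset of gastrulation, when many genes of the embryo's own genome are first strongly transcribed.

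The domains had a median width of 7.80 kb, with quartiles of 6.10 and 10.9 kb. Of the 809, 245 were 10 kb or wider, 34 were 20 kb or wider and 187 were between 5 and 6 kb. The largest chromosome arms held 144 domains on 2L, 179 on 2R, 155 on 3L and 195 on 3R, with 119 on X and 15 on chromosome 4. The unbroken outline of the domains came mainly from 1 list. Library 1188_2 gave a single peak in 706 domains and covered 99.1% of their bases, and library 1632_1 gave a median of 3 peaks, a single peak in 138 domains, and covered 83.3%. From library 1632_1 alone 344 domains were obtained. The outermost ends of both lists lay a median of 154 bp apart. The strongest Pol II summits of both lists lay within 500 bp of each other in 643 domains (79.5%). Median fold enrichment at the strongest summit was 9.70 in library 1188_2 and 5.32 in library 1632_1, against 6.57 and 2.58 in narrower regions. The strongest summit of library 1188_2 lay within 1 kb of a domain end in 353 domains (43.6%), a zone that made up 21.3% of domain bases.

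The 3 narrowest members were 5000, 5001 and 5017 bp wide and held 10, 0 and 1 SAGA subunit peaks summed over the 12 libraries. The 3 widest regions that were left out were 4984, 4984 and 4982 bp wide and held 16, 11 and 11 peaks.

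Most broad domains carried SAGA subunits. A peak was placed in a domain by its midpoint, and a site was called reproducible when its peak recurred in at least 3 of the 4 Ada2b libraries, in at least 2 of the Spt3 or Sgf11 libraries, or in both Non-stop libraries. A reproducible Non-stop site lay in 740 of the 809 domains (91.5%, 95% Wilson interval 89.3 to 93.2), where 55.2% of all merged Pol II regions had one. Sgf11 had a site in 681 domains (84.2%, 81.5 to 86.5), against 46.2% of all merged regions. Spt3 had a site in 523 domains (64.6%, 61.3 to 67.9), against 26.0%. Ada2b had a site in 365 domains (45.1%, 41.7 to 48.6), against 16.3%. These shares were higher than those of all regions for each subunit, but a wider region offers more room for a site. Mid-width regions lay between, with a site in 74.5% for Non-stop, 64.3% for Sgf11, 35.4% for Spt3 and 21.0% for Ada2b. The intervals cover counting error only.

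The 4 subunits were frequently found in the same domain. Sites of all 4 lay in 328 domains (40.5%), against 12.8% of all merged regions and 8.25% of narrower regions. A further 179 domains (22.1%) had sites of Spt3, Sgf11 and Non-stop without Ada2b, against 8.25% of narrower regions. The deubiquitinase pair Sgf11 and Non-stop alone was found in 137 domains (16.9%) and in 16.3% of narrower regions. Non-stop was the sole subunit in 55 domains (6.80%) and in 11.7% of narrower regions. No reproducible site of any subunit was found in 56 domains (6.92%), against 44.8% of narrower regions. Narrower regions had a median width of 1.155 kb and so offered less room for sites. Ada2b had the fewest reproducible sites, 1675, against 2437 to 7050 for the others. The parts of width and of site number in these shares were not tested.

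In the full lists, a domain held more sites of the deubiquitinase module than of the other modules. The mean number of sites per domain was 2.86 for Non-stop, 1.57 for Sgf11, 0.996 for Spt3 and 0.616 for Ada2b. At least 3 sites lay in 410 domains for Non-stop, 142 for Sgf11, 57 for Spt3 and 24 for Ada2b. The most sites in a single domain were 14, 7, 8 and 5 in the same order. The lists differed in size, with 8558 and 12073 Non-stop peaks but 1563 to 5446 Ada2b peaks, and the order of the subunits did not hold at equal list size. With 1563 peaks in every list, Spt3 had a site in 42.6% of domains, Sgf11 in 39.8%, Non-stop in 36.5% and Ada2b in 30.5%.

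The share of domains with a site was higher in the widest than in the narrowest domains for Ada2b, Spt3 and Non-stop, and about level for Sgf11. For Ada2b, 35.4% of 379 domains under 7.5 kb had a site, as did 61.8% of the 34 domains of 20 kb or wider. Sites per 10 kb were 0.675 under 7.5 kb, 0.609 from there to 10 kb, 0.716 from 10 to 20 kb and 0.491 above. For Sgf11 the share moved from 83.4% to 82.4%, while sites per 10 kb went from 2.13 to 0.926. For Non-stop the share was 88.9% and 94.1%, with 3.39 and 2.23 sites per 10 kb. Spt3 had 58.0% and 82.4%, with 1.22 and 0.736 sites per 10 kb. Density was thus lowest in the widest class for all 4 subunits. Across the 809 domains the total number of SAGA peaks rose with width (Pearson r = 0.585, a description, since all points share the same libraries).

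Per unit length, the domains were not richer in SAGA peaks than narrower Pol II regions. Ada2b libraries had 0.131, 0.0831, 0.0631 and 0.206 peaks per kb of domain, against 0.162, 0.0813, 0.0673 and 0.28 in narrower regions. Spt3 libraries had 0.0843, 0.136 and 0.218 in domains against 0.105, 0.116 and 0.35. Both factors were lower in domains in set 1760 and in library 1530_1, and were close to or above the narrower regions in the other set 1530 libraries. Sgf11 libraries had 0.158, 0.204 and 0.196 against 0.254, 0.320 and 0.325. Non-stop libraries had 0.402 and 0.470 against 0.437 and 0.595. All 5 libraries of the deubiquitinase module were lower in domains.

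**Figure D1:**
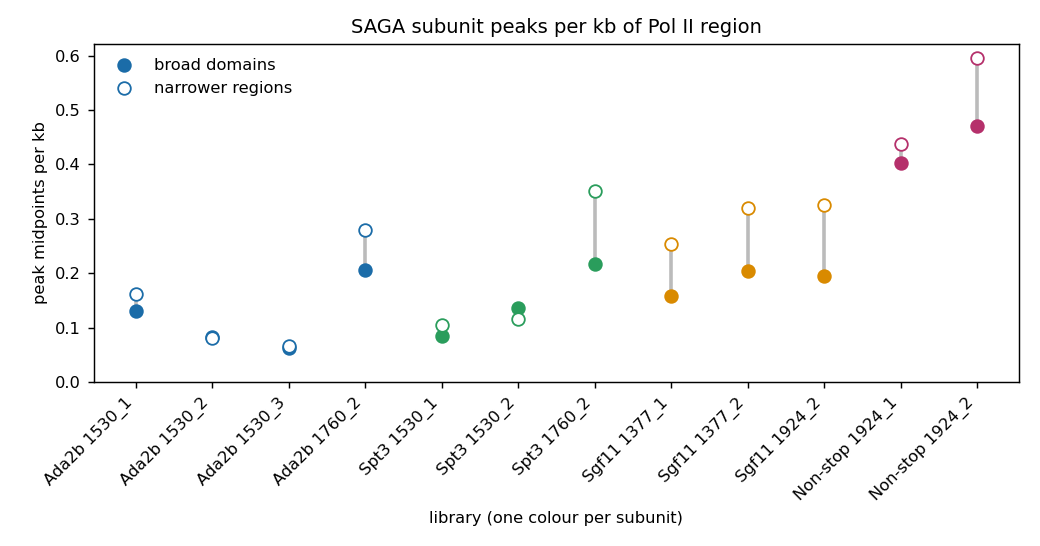
Peak midpoints per kb in broad Pol II domains (filled circles) and in narrower Pol II regions (open circles) for each of the 12 SAGA subunit libraries. All 3 Sgf11 libraries were lower in domains (0.158 to 0.204 against 0.254 to 0.325), while Spt3 1530_2 was higher (0.136 against 0.116).

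The log2 ratio of both densities was -0.34 ± 0.31 (SD, n = 12 libraries), a 0.788-fold density in domains, and was below 0 in 10 of 12 libraries (exact two-sided sign-flip permutation, p = 0.00488, adjusted p = 0.0181 by Benjamini-Hochberg over 26 tests). The libraries came from 4 library sets, and with sets as units the exact test cannot reach the threshold. By factor the mean was -0.69 ± 0.04 (SD, n = 3) for Sgf11, -0.26 ± 0.46 (n = 3) for Spt3, -0.23 ± 0.16 (n = 2) for Non-stop and -0.20 ± 0.21 (n = 4) for Ada2b. Within 1 factor the exact test cannot reach the threshold with so few libraries, and its smallest p is 0.25 for Spt3 and Sgf11 and 0.5 for Non-stop. Ada2b differed from Sgf11 by 0.49 (exact permutation, p = 0.0571) and from Spt3 by 0.06 (exact permutation, p = 0.83), and neither difference passed the threshold. Ada2b and Spt3 together differed from Sgf11 and Non-stop together by 0.28 (exact permutation of 7 against 5 libraries, p = 0.129). The adjusted p of this difference was 0.239. Over 24 alternatives this difference ranged from 0.19 to 0.58, with unadjusted p from 0.0265 to 0.362 (exact permutation). It passed the threshold only with bases of both Pol II lists (0.58, exact permutation, p = 0.0265), without Pol II 1188_2 (0.55, p = 0.0316), with equal peak numbers (0.34, p = 0.0354) and without Spt3 1760_2 (0.35, p = 0.0433). Within set 1530 Ada2b was -0.08 relative to Spt3 (exact permutation, p = 0.9), and in set 1760 it was 0.24, with 1 library each. No library set held both Ada2b or Spt3 and a deubiquitinase subunit, so set and module cannot be told apart. The lower density held for the number of peaks and not for the bases they covered, for which the mean ratio was 0.03 (exact sign-flip permutation, p = 0.809). With domains drawn from Pol II 1188_2 alone or 1632_1 alone it was -0.17 and -0.25, and no longer passed the threshold.

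By bases covered, Non-stop and Sgf11 lay on opposite sides. Non-stop peaks covered 29.2% and 33.3% of domain bases in its 2 libraries, against 19.0% and 27.6% of narrower regions. Sgf11 peaks covered 9.22%, 13.7% and 8.12% of domain bases, against 12.8%, 18.2% and 11.6%. Ada2b and Spt3 libraries went both ways. Ada2b covered 5.82%, 4.26%, 3.14% and 11.4% of domain bases, against 6.11%, 3.31%, 2.58% and 11.7% of narrower regions. Spt3 covered 3.59%, 8.47% and 13.0%, against 3.91%, 5.20% and 15.5%.

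Within the domains all 4 subunits were concentrated at the strongest Pol II summit. Windows of 500 bp either side of the strongest summit of library 1188_2 made up 10.1% of domain bases. Ada2b libraries had 0.622, 0.343, 0.291 and 0.827 peaks per kb in these windows and 0.0757, 0.0540, 0.0376 and 0.136 in the rest of the domain. Spt3 libraries had 0.466, 0.540 and 0.870 near the summit and 0.0415, 0.0910 and 0.144 elsewhere. For these modules the ranges near the summit and elsewhere did not overlap. Sgf11 libraries had 0.758, 0.827 and 0.861 near the summit and 0.0910, 0.134 and 0.121 elsewhere. Non-stop libraries had 0.869 and 0.915 near the summit but also 0.35 and 0.42 elsewhere. The mean log2 ratio was 2.57 ± 0.69 (SD, n = 12), a 5.95-fold difference with the same sign in 12 of 12 libraries (exact sign-flip permutation, p = 0.000488, the smallest that 12 libraries allow, adjusted p = 0.00423). The concentration was not particular to domains. In mid-width regions the density near the summit was 6.71-fold to 10.0-fold that elsewhere for the Ada2b, Spt3 and Sgf11 libraries and 2.97-fold and 2.41-fold for Non-stop, against 5.94-fold to 11.2-fold and 2.48-fold and 2.18-fold in domains. Comparisons around the summit were chosen after the data were seen.

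A peak near the summit was found in 27.1% to 76.5% of domains in the Ada2b libraries and in 43.8% to 81.3% in the Spt3 libraries. The shares were 70.6% to 77.8% for Sgf11 and 79.1% and 82.7% for Non-stop. The window was clipped at region ends and averaged 947 bp in domains and 903 bp in mid-width regions. In the 1436 mid-width regions they were 15.0% to 59.3% for Ada2b, 25.8% to 70.2% for Spt3, 57.1% to 65.3% for Sgf11 and 68.2% and 80.2% for Non-stop. Every library had a larger share of domains than of mid-width regions with a peak at the summit.

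**Figure D2:**
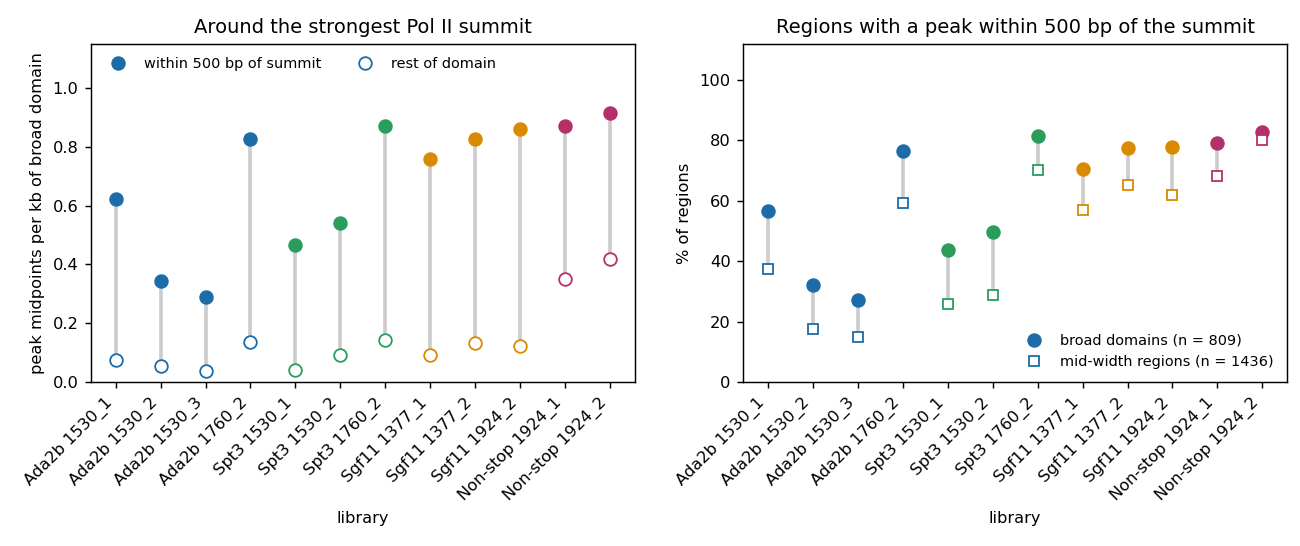
Left, peak midpoints per kb of broad domain within 500 bp of the strongest Pol II summit (filled) and in the rest of the domain (open), per library. Right, the percentage of regions with a peak in that window, for 809 broad domains (filled circles) and 1436 mid-width regions (open squares). Ada2b 1530_1 had a peak at the summit in 56.5% of domains and 37.5% of mid-width regions, and Non-stop 1924_2 in 82.7% and 80.2%.

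Compared place by place, domains were denser in SAGA peaks than mid-width regions. Near the summit the mean log2 ratio of domains over mid-width regions was 0.40 ± 0.29 (SD, n = 12), 1.32-fold, with 11 of 12 libraries above 0 (exact sign-flip permutation, p = 0.000977, adjusted p = 0.00423). Away from the summit it was 0.62 ± 0.33, 1.54-fold, with 12 of 12 libraries above 0 (exact sign-flip permutation, p = 0.000488, adjusted p = 0.00423). Non-stop 1924_2 differed least, at 0.99-fold near the summit and 1.10-fold away from it. Spt3 1530_2 differed most away from the summit, at 2.66-fold. Over whole regions the density in domains was nevertheless lower than in mid-width regions, at a log2 ratio of -0.22 (exact sign-flip permutation over 12 libraries, p = 0.0127). The dense summit windows made up 10.1% of domain bases and 28.6% of the bases of mid-width regions. Strongest Pol II enrichment at the summit was also higher in domains than in narrower regions, and its part in these differences was not tested.

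Ends of domains also held more peaks than their interior for 3 of the 4 subunits. Within 1 kb of either end, Sgf11 libraries had 0.264, 0.322 and 0.334 peaks per kb, against 0.13, 0.172 and 0.159 further in. Ada2b libraries had 0.203, 0.109, 0.0871 and 0.294 at ends against 0.111, 0.0760, 0.0566 and 0.182. Spt3 libraries had 0.142, 0.170 and 0.330 at ends against 0.0686, 0.127 and 0.187. Non-stop libraries had 0.394 and 0.504 at ends against 0.405 and 0.460, so Non-stop was as dense further in as at the ends. The mean log2 ratio of ends over interior was 0.68 ± 0.36 (SD, n = 12), 1.60-fold, above 0 in 11 of 12 libraries (exact sign-flip permutation, p = 0.000977, adjusted p = 0.00423).

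Of the peaks within 1 kb of a domain end, most lay at the end nearer to the strongest Pol II summit. Such peaks made up 20.8% to 36.3% of the domain peaks of a library. The comparison overlaps with the concentration at the summit, which lay within 1 kb of an end in 43.6% of domains. It was not run with summits masked. Sgf11 libraries had 310, 368 and 400 peaks within 1 kb of that end and 117, 153 and 141 at the opposite end. Ada2b libraries had 260, 150, 121 and 366 against 68, 27, 20 and 110. Spt3 libraries had 190, 226 and 396 against 40, 49 and 138. Non-stop libraries had 430 and 503 against 207 and 313. The end near the summit held 3.27-fold more peaks on average (log2 1.71 ± 0.58, SD, n = 12, 12 of 12 libraries; exact sign-flip permutation, p = 0.000488, the smallest possible, adjusted p = 0.00423). Sites at both ends of one domain were found in 1 domain for Ada2b, 12 for Spt3, 61 for Sgf11 and 76 for Non-stop. Domains with a site at a single end numbered 168, 252, 331 and 379 in the same order. The subunits differed in number of reproducible sites, at 1675, 2437, 5493 and 7050, and the part of this in the counts was not tested.

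When the bases within 500 bp of the strongest Pol II summit were left out, the difference between ends and interior was 0.14 (exact sign-flip permutation over 12 libraries, p = 0.355) and no longer passed the threshold. Sgf11 then had 1.73-fold, 1.54-fold and 1.72-fold more peaks per kb at ends, in all 3 libraries. Ada2b libraries had 1.26, 0.806, 0.877 and 1.11 times the interior density, on both sides of 1, as were the Spt3 libraries at 1.28, 0.642 and 1.36. Non-stop had 0.70 and 0.885 times the interior density.

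**Figure D3:**
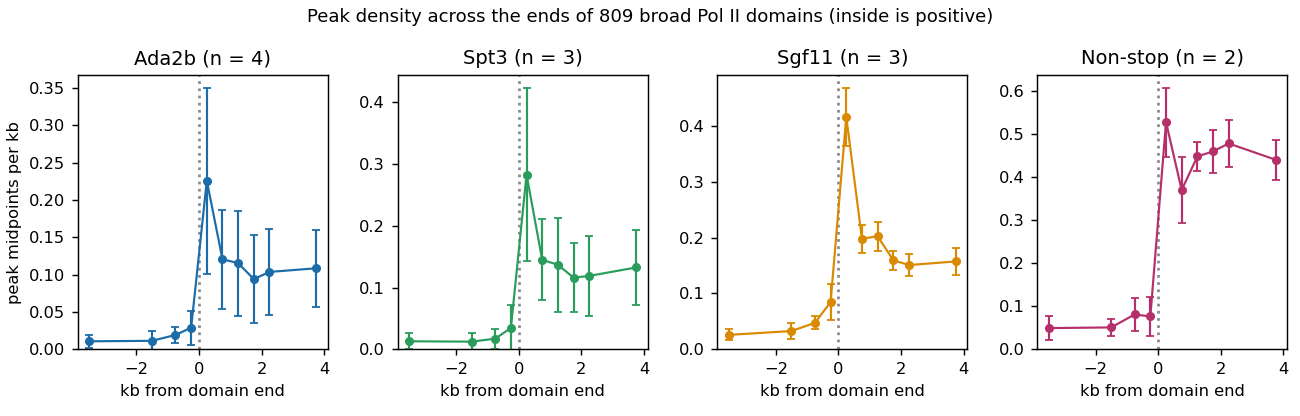
Mean peak midpoints per kb (points, bars are SD over libraries) against the distance from a domain end in kb, inside positive and outside negative, for each subunit. Outside values leave out all other merged Pol II regions. The first 500 bp inside held 0.226 peaks per kb for Ada2b, 0.283 for Spt3, 0.416 for Sgf11 and 0.528 for Non-stop, and the first 500 bp outside held 0.0291, 0.0347, 0.0848 and 0.0766.

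The profile across the ends had a sharp edge for every subunit. Outside the domains, bases and peaks in any other merged Pol II region were left out. The edge thus compares bases in a Pol II region with bases in none. Sgf11 had 0.416 ± 0.052 peaks per kb (SD, n = 3) in the first 500 bp inside a domain and 0.198 ± 0.025 in the next 500 bp. More than 5 kb inside it had 0.111 ± 0.024. Ada2b had 0.226 ± 0.124 (n = 4), 0.121 ± 0.066 and 0.106 ± 0.050 at the same places. Non-stop was also highest at the edge but fell less further in. It had 0.528 ± 0.080 (n = 2), 0.370 ± 0.076 and 0.360 ± 0.014, and stood at 0.478 ± 0.054 between 2 and 2.5 kb inside. Its density at all distances inside was far above the 0.0766 ± 0.046 just outside.

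In the full lists, Non-stop peaks were thus more evenly spread between ends and interior than those of the other subunits. With summits masked the libraries overlapped. Non-stop then had 0.70 and 0.885 times the interior density at ends, and Spt3 1530_2 had 0.642 and Ada2b 1530_2 0.806. The following values are without masking. The log2 ratio of ends over interior was -0.04 and 0.13 in the 2 Non-stop libraries, and those of the other 10 libraries lay between 0.42 and 1.08. The difference in means was -0.75 (exact two-sided permutation of 2 against 10 libraries, p = 0.0152, adjusted p = 0.0438). Near the summit the difference was -1.62 (exact permutation, p = 0.0152, adjusted p = 0.0438). Both p-values are the smallest that this permutation allows, and both comparisons were chosen after the data were seen. Against Sgf11, its partner in the deubiquitinase module, the end difference was -0.96 (exact permutation of 2 against 3 libraries, p = 0.1, the smallest possible). Within set 1924, which holds both, it was -1.03, with 1 Sgf11 library.

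The more even spread of Non-stop was seen in its full lists and not among its highest-scoring peaks. When each list was reduced to its 1563 peaks with the highest score, Non-stop had 2.35-fold and 2.79-fold more peaks per kb at ends than in the interior, and the other libraries had 1.54-fold to 2.80-fold. The difference from the other subunits was then 0.17 at ends (exact permutation, p = 0.545) and 0.09 near the summit (exact permutation, p = 0.833). Non-stop peaks of the domain interior had a median fold enrichment of 2.54 and 2.52 in its 2 libraries, against 3.72 and 4.16 at domain ends and 3.24 and 3.61 in narrower regions. The whole Non-stop lists were also the longest of all, at 8558 and 12073 peaks, so the reduction cut them most and left Ada2b 1530_3 whole. It also raised the ratio of ends over interior for Sgf11, from 1.88-fold to 2.11-fold up to 2.63-fold to 2.80-fold. The part of list size in the Non-stop difference was not tested.

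Of Non-stop peaks in the domain interior, 49.6% and 52.4% overlapped no peak of any other subunit in any library. At domain ends these shares were 18.4% and 25.5%, and in narrower regions 23.2% and 29.6%. Among Non-stop peaks in the upper part of its list by score (above the median), the shares in the interior fell to 21.0% and 8.74%. They were still above the 1.02% and 0.377% at ends and the 2.95% and 3.36% in narrower regions. No test was made of these shares, since peaks of 1 library are not replicates.

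Sites of the 4 subunits were joined where they overlapped, which gave 1761 joined sites in domain interiors and 541 at domain ends. Non-stop was alone at 912 interior sites (51.8%) and at 94 end sites (17.4%). Narrower regions had it alone at 747 of 3035 joined sites (24.6%). All 4 subunits met at 222 interior sites (12.6%) and at 128 end sites (23.7%), against 13.9% in narrower regions. Sgf11 and Non-stop without the other modules made up 14.3% of interior and 25.7% of end sites. Alone here means that no reproducible site of another subunit was called there. Non-stop had 7050 reproducible sites, against 5493 for Sgf11, 2437 for Spt3 and 1675 for Ada2b. The part of this difference in the composition was not tested.

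**Figure D4:**
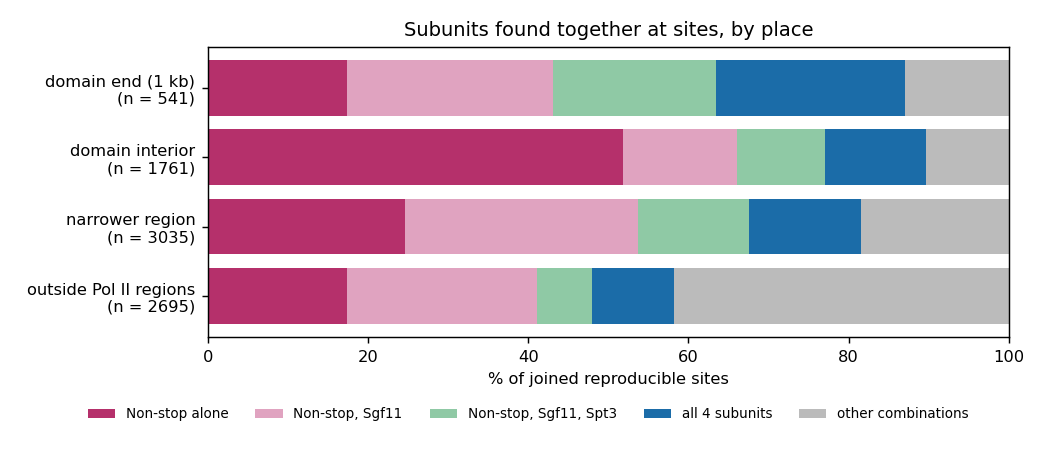
Joined reproducible sites by the subunits found at them, as a percentage of the sites at domain ends, in domain interiors, in narrower Pol II regions and outside merged Pol II regions. Non-stop alone made up 51.8% of the 1761 interior sites and 17.4% of the 541 end sites. Full lists were used, and Non-stop had the most sites.

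Peaks in domains ranked lower in their own lists than peaks in narrower regions. The score of each peak was turned into a percentile within its library. For Non-stop the median percentile in domains was 40.8 and 41.2, against 53.6 and 58.4 in narrower regions. For Ada2b it was 37.8, 30.5, 32.5 and 44.0 against 47.7, 45.8, 44.5 and 49.7. Ada2b peaks outside merged Pol II regions ranked highest, at 56.5 to 70.8. For Sgf11 it was 48.1, 48.5 and 47.8 against 52.1, 55.0 and 54.6, and for Spt3 38.8, 40.8 and 52.8 against 51.5, 53.1 and 52.1. The mean difference was -9.54 ± 5.15 points (SD, n = 12), below 0 in 11 of 12 libraries, with Spt3 1760_2 the exception (exact sign-flip permutation, p = 0.000977, adjusted p = 0.00423). Among peaks above the median score it was -0.17 points (exact sign-flip permutation, p = 0.70), and with 1563 peaks in every list it was -2.35 points (exact sign-flip permutation, p = 0.0894). Within domains, Non-stop peaks at ends had median percentiles of 63.5 and 65.8, and those further in had 36.0 and 36.5.

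Single domains differed widely. Summed over the 12 SAGA libraries, a domain held a median of 19 peaks, with quartiles of 12 and 28. All 12 libraries had a peak in 210 domains (26.0%), and 33 domains (4.08%) had none in any library. Coordinates are in dm3, and no gene names were assigned to them.

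The widest domain, chr3R:6388511-6440437, was 51.9 kb wide and held 108 peaks. Non-stop had 28 and 23 peaks there, Spt3 had 2, 19 and 7, Ada2b had 3, 3, 1 and 13, and Sgf11 had 2, 5 and 2. It had 14 reproducible Non-stop sites, between 16.3 and 51.1 kb from its start, but no reproducible Ada2b site. Both Pol II lists had their strongest summit at 51.4 kb, close to the far end. Reproducible Spt3 sites were centred at 31.7, 37.3 and 51.5 kb and Sgf11 sites at 37.4 and 51.6 kb, so each had 1 site beside that summit and the others far from it.

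The next widest domains were chr2L:208275-251522 with 71 peaks, chr2L:1378519-1420781 with 34, chr3R:4647386-4684177 with 54 and chr3L:22369511-22401191 with 24. All had their Pol II summits near 10-fold enrichment in library 1188_2 (from 10.0 to 10.6), yet SAGA peaks per kb ranged from 0.758 to 1.64. In chr2L:208275-251522 sites gathered in separate groups. Spt3, Sgf11 and Non-stop sites lay at 13.6 to 13.9 kb from its start, where the Pol II summit lay at 13.6 kb. A further group, with the sole Ada2b site, lay at 42.3 to 42.6 kb.

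The 5 domains with the most peaks were all wide, at 19.5 to 51.9 kb. The domain chr3R:15126783-15152116 also held 108 peaks in 25.3 kb, with 18 and 24 of Non-stop, 0, 20 and 9 of Spt3 and 4, 6, 3 and 16 of Ada2b. Sgf11 had 1, 5 and 2 peaks there, and its sole reproducible site lay at 25.1 kb, at the Pol II summit. In chr2R:6404771-6429387, 103 peaks were spread over the subunits, with 9, 9, 7 and 13 of Ada2b, 5, 10 and 13 of Spt3, 5, 8 and 4 of Sgf11 and 11 and 9 of Non-stop. It had 5 reproducible Ada2b sites, the highest number, which it shared with 2 other domains. The domain chr3R:4840230-4859767 and the domain chrX:6969424-6992613 held 91 peaks each. Ada2b had 7, 9, 10 and 12 peaks in the latter, and Sgf11 had 1, 8 and 1.

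**Figure D5:**
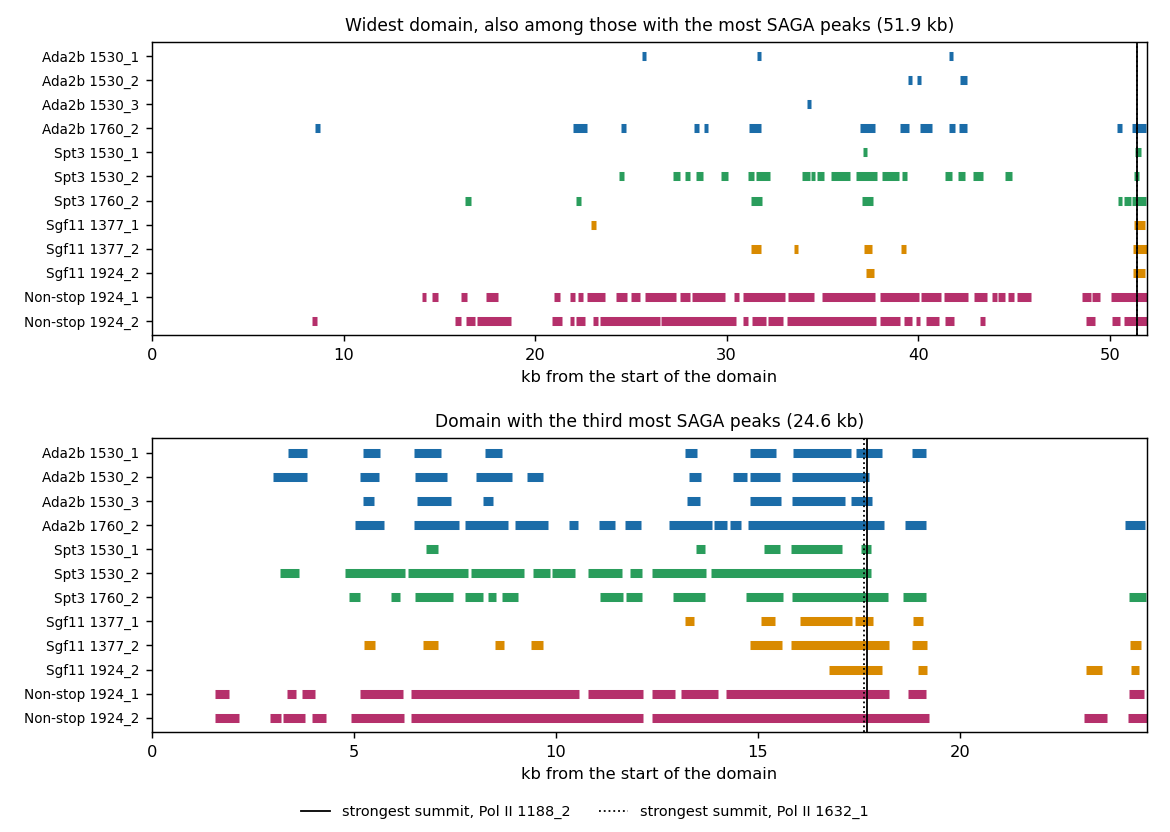
Peaks of each of the 12 SAGA libraries (bars, to scale) along the widest domain and along the domain with the third most peaks, in kb from the start of the domain, with the strongest Pol II summits as vertical lines. In the widest domain Non-stop covered the middle (28 and 23 peaks) and each Sgf11 library had a peak beside the summit at 51.4 kb, whereas Ada2b had 9, 9, 7 and 13 peaks in the other domain.

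The 33 domains without any SAGA peak were weak in Pol II. Their median width was 6.96 kb. Their strongest Pol II summit had a median fold enrichment of 3.10 in library 1188_2 (range 2.21 to 4.48), against 9.79 in the other domains. The widest were chrX:8523354-8540573 at 17.2 kb, chr3L:22357313-22369431 at 12.1 kb and chr2R:19475665-19487680 at 12.02 kb. Library 1632_1 had broken these into 10, 5 and 8 Pol II peaks. The one on 3L lies directly before the fifth widest domain, which held 24 SAGA peaks.

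By chromosome arm, Non-stop had 0.426 ± 0.037 peaks per kb of domain on 2L (SD, n = 2), 0.444 ± 0.046 on 2R, 0.412 ± 0.054 on 3L and 0.469 ± 0.047 on 3R. Sgf11 had 0.198 ± 0.023 (n = 3), 0.20 ± 0.023, 0.171 ± 0.028 and 0.180 ± 0.026 on the same arms. On X, Non-stop had 0.392 ± 0.048 and Sgf11 0.185 ± 0.025. The Sgf11 ranges of these 5 arms overlapped. For Non-stop, both values on 3R, 0.436 and 0.502, were above both on X, 0.357 and 0.426. The 15 domains of chromosome 4 had the highest Non-stop mean shown here, 0.554 ± 0.124, and a Sgf11 value of 0.149 ± 0.019. The Non-stop values on chromosome 4 were 0.467 and 0.642, against 0.436 and 0.502 on 3R. The lower and the upper value were each higher on chromosome 4, although the ranges overlapped. In narrower regions Non-stop was also highest on chromosome 4, at 0.605 ± 0.166, against 0.476 to 0.541 on the other arms.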

How the data were processed

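Peak lists of 14 ChIP-seq libraries were analysed, and the 10 total chromatin samples of the series were not used. Per the labels, reads were processed with CASAVA 1.8.2, bowtie and MACS2 on build dm3. The authors called peaks per library. The control, and the settings for Non-stop and Pol II, are not given in the sources used here, and other tool versions were not stated. The deposited score, fold enrichment (a ratio) and −log10 p and q values are those of MACS2. The lowest −log10 q was 2.01 to 2.29 in a list. Read depth is unknown, and weaker binding counts as absent.

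Peaks were placed by midpoint, except that sites were joined from overlapping peaks. Densities were compared within each library as log2 ratios with a prior of 0.5 peak, by exact two-sided sign-flip permutation over libraries or exact permutation between factors, with a threshold of 0.05 and 26 tests adjusted together. Ends were 1 kb each. Named domains are the 5 widest, the 5 with most SAGA peaks, the 3 widest without any and 3 on either side of the width limit. No pair of lists was identical. Interval code gave the results of bedtools 2.31.1 and was tested on simulated lists. Python 3.11.15, NumPy 2.4.6, pandas 2.3.3, SciPy 1.17.1 and matplotlib 3.10.9 were used. The domains and comparisons were chosen with earlier results of these data known. The annotation at hand is of another build, so no genes or sequences were read.

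Ada2b and Spt3 share library numbers. Deviations of peak numbers over domains correlated at 0.255, 0.287 and 0.522 for equal numbers, and at -0.514 to 0.415 for unequal ones. Every equal pair was above 0.1, and libraries of equal number were treated as pairs in the block, although 1 unequal pair, at 0.415, was above 2 of the equal ones.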

Additional observations from a re-analysis of the deposited data

Results flagged for a closer look

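The 2 Non-stop libraries differed from the other 10 SAGA libraries in where their peaks lay within broad domains. The log2 ratio of peaks per kb at domain ends over the interior was lower for Non-stop by a difference of -0.75, and that of peaks near the strongest Pol II summit over the rest of the domain by -1.62 (exact permutation of 2 against 10 libraries, p = 0.0152 for both). Every Non-stop value lay outside the range of the other libraries, so both p-values are the smallest that this permutation allows. Both comparisons were chosen after the data were seen. Non-stop lists were the longest, with 8558 and 12073 peaks, and with 1563 peaks in every list the differences were 0.17 and 0.09.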

How the results depend on the processing

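In all, 533 alternatives over 31 results were computed, and 460 were counted as unchanged. Shares counted as unchanged within their Wilson interval and the number of domains within a set factor. Other results had to keep their direction and their side of the threshold. That side could not change for single-factor results or for Sgf11 against Spt3 or Non-stop, whose exact tests cannot reach the threshold. The 460 thus include alternatives that could fail by direction only. Densities near the strongest Pol II summit, at the end nearest to it, and in domains against mid-width regions kept direction and side under every alternative run for them. Results on summits, on mid-width regions and on Non-stop against other subunits, and masking of summits, were chosen after seeing the data. Domains numbered 245 at a width of 10000 bp and 324 from bases in both Pol II lists. Subunit shares (Ada2b, Spt3, Sgf11, Non-stop) were 59.6%, 75.1%, 86.5% and 95.9% of domains of 10000 bp, 21.1%, 39.9%, 59.8% and 77.9% with the upper 50% of peaks by score, and 30.5%, 42.6%, 39.8% and 36.5% with equal peak numbers. At a width of 4000 bp Ada2b and Spt3 had 40.6% and 60.2%. In bases of both Pol II lists Ada2b, Spt3 and Sgf11 had 50.0%, 67.9% and 74.7%, and Sgf11 had 86.8% with any overlap. With bases of both Pol II lists, log2 density was -0.25 over all libraries and 0.063 for Ada2b, and Ada2b with Spt3 against the deubiquitinase module was 0.58. By bases covered it was 0.029 over all, 0.14 for Ada2b, 0.11 for Spt3 and 0.45 for Non-stop. Ada2b minus Sgf11 was 0.67 at 10000 bp, 0.25 with upper peaks and 0.61 by bases covered, and passed the threshold in each, as it did without Pol II 1188_2 (0.77). Ada2b minus Spt3 was -0.079 with upper peaks, -0.0074 with equal numbers, -0.078 in set 1530 and 0.019 with the replicate block, which changed no call. With equal numbers the module difference was 0.34, Non-stop minus the others was 0.17 at ends and 0.093 near summits, and percentile differences were -2.35 over all and 0.94 for Sgf11. With upper peaks the latter were -0.17 over all, 0.12 for Spt3 and 0.97 for Sgf11. With 4 library sets as units, too few for the exact test to reach the threshold, density was -0.43, ends over interior 0.70 and percentiles -8.12. With summits masked, ends over interior were 0.14 over all, -0.0048 for Ada2b and -0.35 for Non-stop, and Non-stop minus the others was -0.58. The cause of these changes was not tested.

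Leaving out 1 library at a time gave ranges of 344 to 776 domains, -0.40 to -0.17 for density, -0.28 to 0.045 for that of Ada2b, 0.41 to 0.77 for Ada2b minus Sgf11, -0.16 to 0.30 for Ada2b minus Spt3 and 0.20 to 0.55 for the module difference. Density without Pol II 1632_1 was -0.17 and without 1188_2 -0.25, which ended its call. Shares were 45.2% to 68.2% for Ada2b, 45.6% to 65.9% for Spt3, 72.1% to 84.8% for Sgf11 and 89.0% to 94.7% for Non-stop. Ends over interior of Non-stop ranged from -0.038 to 0.14. Non-stop minus the others ranged from -1.02 to -0.67 at ends and from -1.72 to -1.49 near summits. With 1 Non-stop library the exact test cannot go below 0.0909, which ended both calls. Placement of joined sites by summit was not run, since they have none.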
